A study of Mus musculus with 4 samples.

Results

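Aminoacyl-tRNA synthetases are the enzymes that load each amino acid onto its own transfer RNA. Their transcripts were followed here in C2C12, a mouse muscle precursor line whose cells fuse into myotubes once serum is lowered. The family was taken as a fixed list of 36 gene symbols, and every array probe whose transcript accession maps to one of them counted as a member probe. All 36 genes were found, among 19751 genes that could be named on the array, and they had 45 of its 39429 probes. Of the 36, 20 encode cytosolic enzymes and 16 mitochondrial ones. A newer nomenclature adds a final 1 to many of the cytosolic symbols, as in Wars1 for Wars.

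Cells in both groups were C2C12 myoblasts on day 3 of myogenic differentiation in horse serum medium. The treated group received interferon-gamma (IFN-γ) at 1 ng/ml, and the control group received no cytokine. The labels give the horse serum as 2% in one field and 10% in another. Each of 4 arrays carried RNA of one treated culture in the dye Cy5 and control RNA in Cy3, so dye and treatment cannot be told apart. Treated samples are called biological replicates 1 to 4, whereas the source of each control is unstated, and every p-value below reflects array-to-array spread alone, some of it possibly technical. C2C12 is a single cultured line, and bulk RNA cannot tell fewer cells of a kind from less RNA per cell.

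In background, one set of synthetases works in the cytosol and another, encoded by separate nuclear genes, is imported into mitochondria, where it serves the translation of respiratory chain subunits. Lysyl- and glycyl-tRNA synthetase are exceptions, since Kars and Gars each encode both forms, and glutamine is attached in mitochondria through a detour that needs no glutaminyl enzyme. Several cytosolic enzymes are bound in a multi-synthetase complex with scaffold proteins. Many cytosolic synthetase genes belong to the amino acid response, in which the transcription factor ATF4 binds a short element in their promoters. Tryptophanyl-tRNA synthetase, the product of Wars, is a well-known interferon-induced protein that is also secreted and acts in immune signalling.

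Promoter sequences of 27 of the 36 genes were held by the RefSeq promoter table of build GRCm38.p6, each running from 250 bases before to 50 bases after the annotated start. No Wars promoter was in that table. Of these, 26 were searched on both strands for 3 motifs, namely the amino acid response element TGATGCAA, the interferon-gamma activated site (GAS) TTCNNNGAA and the core of the interferon-stimulated response element (ISRE). The amino acid response element was present in 3 of the 26 promoters, those of Iars, Tars and Yars, and in 0.895% of the 32851 promoters of this length in the table. The windows around it are shown so that the match can be read beside the values of these 3 genes given later, with the element in capitals and each sequence written 5′ to 3′ on the strand of its gene. For Iars and Tars the match is on the opposite strand, so the capitals are the reverse complement of TGATGCAA. It covers bases 8 to 15 after the start in Iars, 4 to 11 after it in Yars and 15 to 8 before it in Tars.

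Iars, chr13:49682126-49682155, plus strand: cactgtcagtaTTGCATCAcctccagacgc
Tars, chr15:11399655-11399684, minus strand: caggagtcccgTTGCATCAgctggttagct
Yars, chr4:129189895-129189924, plus strand: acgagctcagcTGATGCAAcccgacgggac

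The GAS letters occurred in 2 of the 26 promoters, those of Kars and Nars2, against 8.3% of all promoters in the table. The ISRE core occurred in 1, that of Qars, against 3.44%. The match in Kars is shown in capitals, since its transcript was called higher, and it covered the last 9 bases before the start.

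Kars, chr8:112011344-112011374, minus strand: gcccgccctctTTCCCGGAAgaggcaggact

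Apart from Wars, the members with the largest rise and the largest fall were Iars2 and Dars. None of the 3 motifs was found in their promoter windows, of which the 250 bases upstream of the start are shown.

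Iars2, chr1:185329402-185329651, minus strand: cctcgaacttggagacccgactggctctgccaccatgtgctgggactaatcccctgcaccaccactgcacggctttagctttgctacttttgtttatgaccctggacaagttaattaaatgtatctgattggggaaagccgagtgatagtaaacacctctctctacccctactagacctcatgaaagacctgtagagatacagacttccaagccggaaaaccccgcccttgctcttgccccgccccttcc
Dars, chr1:128417417-128417666, minus strand: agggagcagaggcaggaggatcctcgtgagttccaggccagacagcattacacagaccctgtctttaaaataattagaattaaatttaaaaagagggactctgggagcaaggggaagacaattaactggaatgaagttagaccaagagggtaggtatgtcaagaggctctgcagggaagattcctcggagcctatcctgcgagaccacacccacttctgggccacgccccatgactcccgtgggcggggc

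A motif match describes letters in a window and is neither a binding site nor a cause.

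Median intensities of single arrays lay between 79.8 and 97 in Cy3 and between 149.5 and 264 in Cy5. Known IFN-γ targets showed that the treatment labels held, since all 7 genes of a check list rose, from 1.75 for Socs1 to 7.08 for Gbp3 on the log2 scale. All 10 myogenic markers, among them Des, Myod1 and Myog, were well above background in both channels on all arrays, and 5 were called lower and 1 higher, with a median of −0.49. Of the markers of other cell types, 6 of 8 for fibroblasts, 5 of 8 for macrophages and 2 of 7 for endothelium were above background in both channels on all arrays. Fibroblast markers were called higher in 5 cases and lower in 0, macrophage markers in 1 and 1, and endothelial markers in 0 and 1. Called were 60% of tested myogenic, 71.4% of fibroblast, 33.3% of macrophage and 25% of endothelial markers, beside 33.7% of all tested genes. The part of the marker shifts in the synthetase values was not tested. Replicate 2 correlated least with the other arrays, with a mean Pearson r of 0.687 over all tested genes against 0.797 to 0.837 for the others (15672 genes, which are not independent replicates).

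One synthetase transcript, that of Wars, was much more abundant after IFN-γ. Under loess, the main normalisation, the median of the family lay close to that of all tested genes. The unit is the log2 ratio of treated over control on an array, normalised by loess, and a gene was called when its mean differed from 0 at a Benjamini-Hochberg adjusted p under 0.05 in limma. All 36 members passed the filter on dim probes, and 35 of them were well above background in both channels on all 4 arrays. Of the 36, 6 were called higher and 6 lower, which is 33.3% of the family beside 33.7% of all 15672 tested genes, of which 19.9% were higher and 13.9% lower. The share of called members was therefore close to that of the array, and the count says nothing particular about the family. The median ratio was 0.013 over the 36 members and 0.026 over all tested genes. Of the 36 means, 24 lay within 0.25 of 0, beside 60.9% of all tested genes, and 8 of the 12 called members lay under 1.5-fold, beside 70.3% of all called genes. One member, Wars, reached 2-fold, as did 2.78% of all tested genes together with a call.

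**Figure D1:**
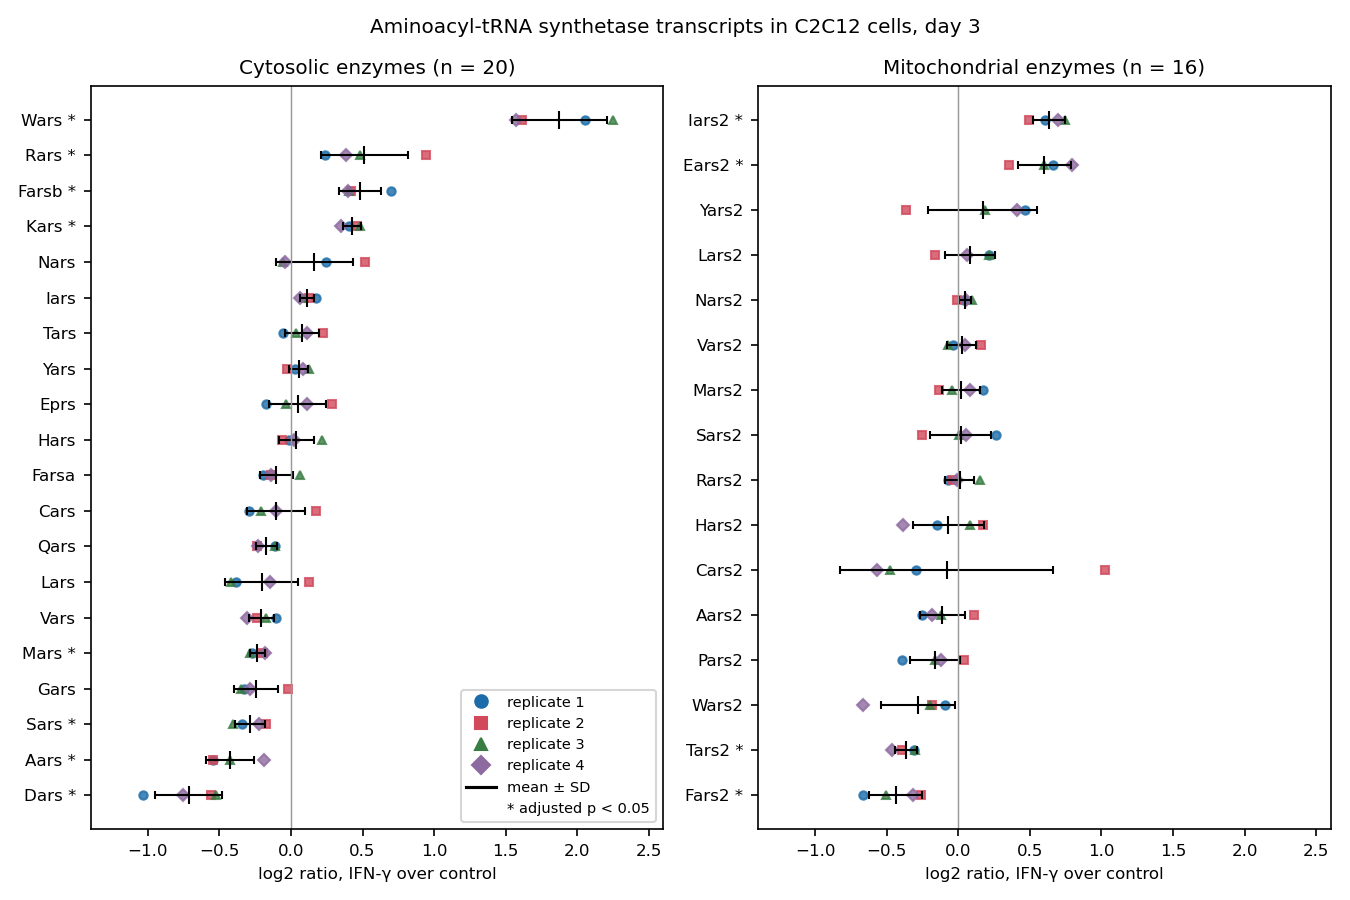
Log2 ratio of IFN-γ-treated over control cells (x axis) for each cytosolic (left) and mitochondrial (right) synthetase gene, with a symbol per array, a tick and bar for the mean ± SD of 4 arrays, and an asterisk for an adjusted p under 0.05. Wars lies apart at 1.57 to 2.25, and most other members lie close to 0.

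Wars encodes the cytosolic tryptophanyl enzyme. Its normalised log2 intensity was 13.3, 13.4, 13.3 and 13.3 in control RNA and 15.3, 15.0, 15.6 and 14.9 in treated RNA for replicates 1 to 4. Control and treated values did not overlap, and replicates 1 and 3 had the higher treated values. The log2 ratios were 2.05, 1.62, 2.25 and 1.57, a mean of 1.87 ± 0.33 (SD, n = 4), or 3.66-fold, with an adjusted p of 0.00041 (limma). The gene ranked 125 of 15672 by its mean, above 99.2% of the tested genes. A second probe, assigned to another RefSeq transcript of Wars, gave 1.40, 0.73, 1.30 and 0.93, with a mean of 1.09 ± 0.31 and an adjusted p of 0.0021 when each probe was tested. The first probe exceeded the second on all 4 arrays, by 0.78 ± 0.16. Wars was called higher under all 17 alternatives run, with means from 1.48 to 2.89.

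**Figure D2:**
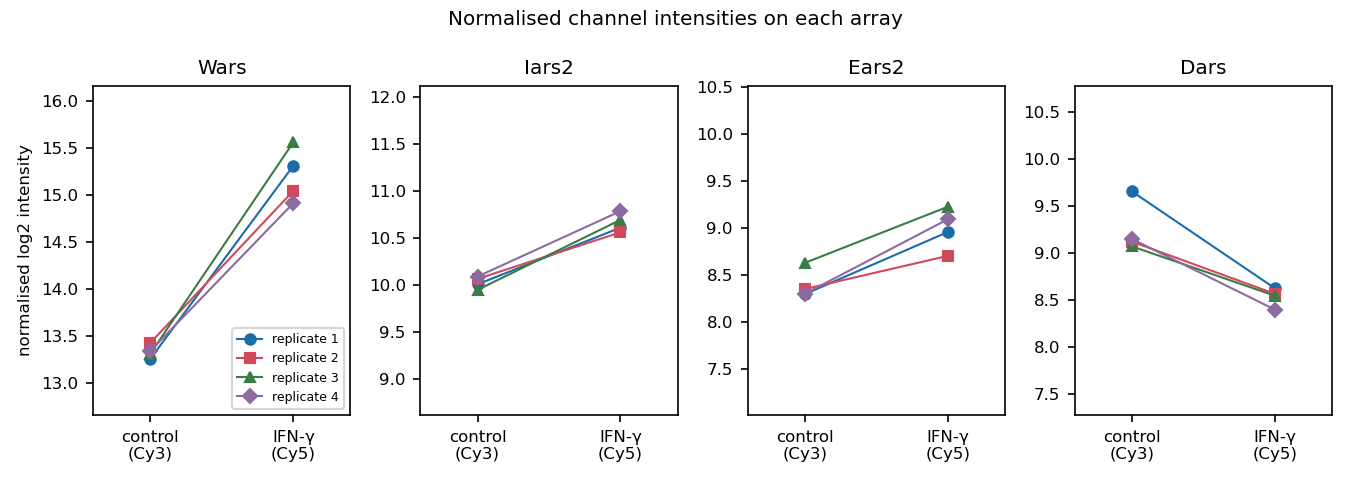
Normalised log2 intensity (y axis) of 4 members in control RNA (Cy3) and treated RNA (Cy5), with a line per array. Each panel spans the same number of log2 units but has its own level, since levels of different probes cannot be compared; Wars shows the steepest rise, and Dars is lower in treated RNA on all 4 arrays.

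The mitochondrial tryptophanyl gene Wars2 did not share this rise. Its ratios were −0.09, −0.18, −0.19 and −0.67, with a mean of −0.28 ± 0.26 and an adjusted p of 0.087 (limma), and its second probe had 0.08 ± 0.19. Within each array Wars exceeded Wars2 by 1.80 to 2.44, a mean difference of 2.16 ± 0.27. The exact two-sided sign permutation p of that difference was 0.125, which is the smallest that 4 arrays can give. Against the median of the other 19 cytosolic enzymes the excess of Wars was 2.16, 1.63, 2.31 and 1.67 for replicates 1 to 4. Without loess the mean excess of Wars over Wars2 was 2.59, and with Feature Extraction's signals it was 2.33. Wars rose less than Irf1, an interferon-induced transcription factor, on all 4 arrays, by a mean of 0.87 ± 0.18, an exact p of 0.125.

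The 8 synthetases of the multi-synthetase complex moved in both directions, with 2 called higher, 2 lower and 4 not called. That is 50% called, beside 33.7% of all tested genes, and the median was −0.063. Dars, the aspartyl enzyme, had the largest fall in the family. Its ratios were −1.03, −0.56, −0.53 and −0.75, with a mean of −0.72 ± 0.23, a level 1.64-fold lower, and an adjusted p of 0.004 (limma). Normalised log2 intensities were 9.08 to 9.66 in control and 8.40 to 8.63 in treated RNA, without overlap, and replicate 1 had both the highest control value and the lowest ratio. Rars, the arginyl enzyme, had ratios of 0.24, 0.94, 0.48 and 0.38, with a mean of 0.51 ± 0.30 and an adjusted p of 0.021. Replicate 2 was the highest, and without replicate 3 or replicate 4 the call was lost (adjusted p = 0.082 and 0.064).

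Kars, the lysyl enzyme of both compartments, rose evenly by 0.40, 0.46, 0.48 and 0.35, with a mean of 0.43 ± 0.06 and an adjusted p of 0.0045 (limma). Mars, the methionyl enzyme that also charges the initiator transfer RNA, had −0.28, −0.20, −0.29 and −0.18, with a mean of −0.23 ± 0.05 and an adjusted p of 0.028. Mars lost its call when any of replicates 1, 3 or 4 was left out (adjusted p = 0.083 to 0.133). The remaining members of the complex were not called. They were Eprs, the fused glutamyl-prolyl enzyme, at 0.05 ± 0.20, Iars, the isoleucyl enzyme, at 0.11 ± 0.05, Lars, the leucyl enzyme, at −0.21 ± 0.25, and Qars, the glutaminyl enzyme, at −0.17 ± 0.07. Lars was below 0 on replicates 1, 3 and 4 and at 0.13 on replicate 2, and without replicate 2 it was called lower (−0.32, adjusted p = 0.014).

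Of the complex's 3 scaffold genes, Eef1e1 rose by 0.36 ± 0.25 with an adjusted p of 0.043 (limma). Aimp1 and Aimp2, the other scaffolds, had −0.17 ± 0.15 and −0.29 ± 0.20 and were not called.

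Among the 12 free cytosolic enzymes, 2 were called higher, Wars and Farsb, and 2 lower, Aars and Sars. That is 33.3% called, close to the 33.7% of all tested genes. Phenylalanyl-tRNA synthetase is built from an alpha and a beta subunit, and its 2 genes differed. Farsb, the beta subunit, had ratios of 0.70, 0.42, 0.41 and 0.40, with a mean of 0.48 ± 0.15 and an adjusted p of 0.0062 (limma). Farsa, the alpha subunit, had −0.20, −0.14, 0.07 and −0.14, with a mean of −0.10 ± 0.11 and an adjusted p of 0.31, and its second probe had 0.02 ± 0.16. Farsb exceeded Farsa on all 4 arrays, by 0.58 ± 0.23, an exact p of 0.125.

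Aars, the alanyl enzyme, had −0.55, −0.55, −0.43 and −0.19, with a mean of −0.43 ± 0.17, a level 1.35-fold lower, and an adjusted p of 0.011 (limma). It was below 0 on every array and closest to 0 on replicate 4, and without replicate 3 the adjusted p was 0.058. Sars, the seryl enzyme, had −0.34, −0.18, −0.40 and −0.22, with a mean of −0.29 ± 0.10 and an adjusted p of 0.022, and lost the call without any of replicates 1, 3 or 4 (adjusted p = 0.070 to 0.112). Gars, the glycyl enzyme of both compartments, was also below 0 on all 4 arrays at −0.25 ± 0.15, with an adjusted p of 0.055, and without replicate 2, where it was −0.02, it was called lower (adjusted p = 0.006). Vars, the valyl enzyme, had −0.21 ± 0.09 and an adjusted p of 0.052. The rest were not called, namely Cars, the cysteinyl enzyme, at −0.11 ± 0.20, Hars, the histidyl enzyme, at 0.04 ± 0.12, Nars, the asparaginyl enzyme, at 0.16 ± 0.27, Tars, the threonyl enzyme, at 0.08 ± 0.12, and Yars, the tyrosyl enzyme, at 0.05 ± 0.07.

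The mitochondrial enzymes had a median of 0.013, with 2 of 16 called higher, 2 lower and 12 not called, or 25% called, beside 40% of the 20 cytosolic ones and 33.7% of all tested genes. The difference between these shares was not tested. Iars2, the mitochondrial isoleucyl enzyme, rose by 0.60, 0.50, 0.74 and 0.70, with a mean of 0.63 ± 0.11, or 1.55-fold, and an adjusted p of 0.002 (limma). Its control and treated log2 intensities did not overlap, at 9.95 to 10.1 and 10.6 to 10.8. The second probe of Iars2, for the same transcript, had 0.07 ± 0.11 and was not called, so the rise rests on 1 probe. Ears2, the mitochondrial glutamyl enzyme, rose by 0.66, 0.35, 0.60 and 0.79, with a mean of 0.60 ± 0.18, or 1.52-fold, and an adjusted p of 0.0045. It was lowest on replicate 2 and above 0 on all arrays.

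Fars2, the single-chain mitochondrial phenylalanyl enzyme, had −0.67, −0.26, −0.50 and −0.32, with a mean of −0.44 ± 0.18 and an adjusted p of 0.012 (limma). Without replicate 3 its adjusted p was 0.066. Tars2, the mitochondrial threonyl enzyme, had −0.31, −0.39, −0.30 and −0.46, with a mean of −0.37 ± 0.07 and an adjusted p of 0.0078, while its second probe, for another transcript, had −0.07 ± 0.10 and was not called. Both genes were below 0 on all 4 arrays, and each fell by less than 1.5-fold.

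Of the mitochondrial members that were not called, Cars2 varied most between arrays and between probes. Its ratios were −0.30, 1.02, −0.48 and −0.57, and its second probe had the opposite pattern, at 0.11, −0.32, 0.21 and 0.32. Without replicate 2 Cars2 was called lower (−0.45, adjusted p = 0.0032 in limma), a fall that its second probe did not show. Yars2, the tyrosyl enzyme, had 0.47, −0.37, 0.18 and 0.41 and was called higher without replicate 2 (0.35, adjusted p = 0.0092).

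The other mitochondrial means were −0.11 ± 0.16 for Aars2, −0.07 ± 0.25 for Hars2, 0.08 ± 0.18 for Lars2, 0.02 ± 0.13 for Mars2, −0.16 ± 0.18 for Pars2, 0.0096 ± 0.10 for Rars2, 0.02 ± 0.21 for Sars2 and 0.02 ± 0.10 for Vars2. Each carries the amino acid of its cytosolic namesake, and Pars2 is the prolyl enzyme. None passed the test. Nars2, the asparaginyl enzyme, had 0.05 ± 0.04, but its probe was not well above background in control RNA on any array and was so in treated RNA on 3, so a fold cannot be given.

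Under loess the cytosolic median minus the mitochondrial one was −0.05, 0.08, −0.03 and −0.09 on replicates 1 to 4, with replicate 2 on the other side of 0. The direction depended on the scaling, since the difference between the medians of the gene means was −0.04 under loess, 0.20 under both centrings without loess and 0.02 with Feature Extraction's signals. Sets of 2 enzymes for 1 amino acid gave 17 comparisons, counting Eprs against both Ears2 and Pars2 and both cytosolic phenylalanyl subunits against Fars2. Under loess the cytosolic gene had the higher ratio on all 4 arrays in 6 of them and the mitochondrial gene in 5. Of these 11, 10 kept the sign of their mean under the other 3 scalings, and Mars against Mars2 did not. Rars exceeded Rars2 by 0.50 ± 0.32, a difference of 0.09 without loess, and Tars exceeded Tars2 by 0.45 ± 0.18. In the other direction, Iars lay below Iars2 by −0.52 ± 0.15, Eprs below Ears2 by −0.55 ± 0.34 and Mars below Mars2 by −0.26 ± 0.16, the last of which turned to 0.65 without loess. Each of these had an exact two-sided p of 0.125, the smallest 4 arrays allow, so none could pass. All 17 comparisons used the brightest probe of a gene, and 2 of those named depended on it. The second Iars2 probe had 0.01, −0.03, 0.22 and 0.08, beside 0.18, 0.13, 0.08 and 0.06 for Iars. Against that probe the sign was not the same on all arrays. The second Tars2 probe had −0.07 ± 0.10, beside 0.08 ± 0.12 for Tars, and was above Tars on replicate 1 (0.02 and −0.05).

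**Figure D3:**
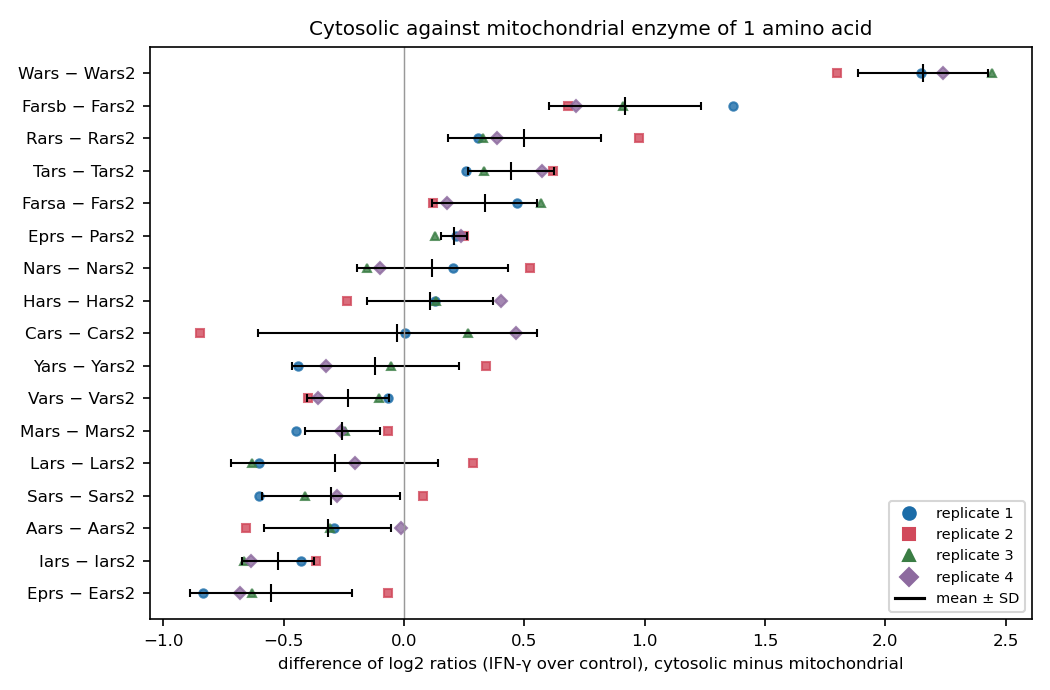
Difference between the log2 ratios of the cytosolic and the mitochondrial enzyme for 1 amino acid (x axis) in 17 comparisons, with a symbol per array and the mean ± SD of 4 arrays. Values are under loess; Wars minus Wars2 is the farthest from 0, at 1.80 to 2.44, and the comparisons fall on both sides of 0, with Mars minus Mars2 turning from −0.26 to 0.65 without loess.

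Replicate 2 was the highest or the lowest array for 24 of the 36 members, against 20, 16 and 12 for replicates 1, 3 and 4. Without replicate 2, 7 members were called higher and 11 lower, beside 25.9% and 19.0% of all tested genes. Without replicate 3 the counts were 5 and 2, beside 10.2% and 5.92%. Across the 35 members other than Wars the mean Pearson r of replicate 2 with the other arrays was 0.43. For the others it was 0.69 to 0.72, given as a description.

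The 6 called rises stayed above 0 under each of the 4 scalings, and the 6 called falls did not. Centring each array on its median, which does not remove a trend of the ratio with intensity, moved the median of all tested genes from 0.026 to 0.69. Feature Extraction's signals turned none of the 6 falls, and centring on the tested probes turned all but that of Dars, which had −0.46 there. Under median centring 33 members were called higher and 1 lower, beside 67.0% and 17.0% of all tested genes, and the signs of all 6 members that fell turned positive. Read against that shifted median, all 6 members called higher remained above it and 4 of the 6 called lower remained below it, with Mars and Sars on the other side. Dars lay higher than only 2.57% of tested genes under loess, 3.24% with Feature Extraction's signals and 25.1% under median centring. For Aars these were 8.13%, 16.1% and 43.9%. Wars stood at 99.2%, 98.8% and 99.3%.

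**Figure D4:**
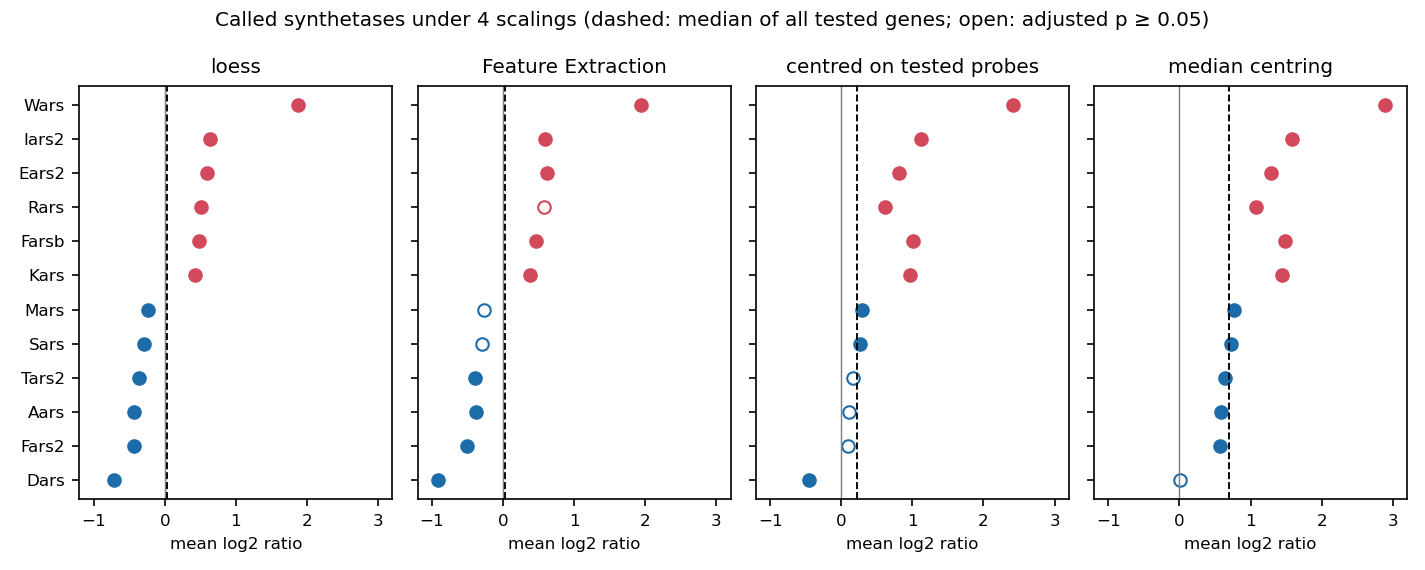
Mean log2 ratio over 4 arrays (x axis) of the 12 called synthetases under loess, Feature Extraction's signals, centring on the tested probes and median centring; the dashed line is the median of all tested genes, and open circles have an adjusted p of at least 0.05. The 6 members that rose lie above the dashed line in every panel, while Mars and Sars, below it under loess, lie above it in the panels without loess.

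Of the 12 cytosolic synthetase genes that are known ATF4 targets, 1 was called higher, Wars, and 3 lower, Aars, Mars and Sars. That is 33.3% called, close to the 33.7% of all tested genes, with a median of −0.03. The 3 members shown above with an amino acid response element in the promoter window had means of 0.11 for Iars, 0.08 for Tars and 0.05 for Yars. None of them was called. Of the 8 other cytosolic enzymes 3 were called higher and 1 lower, or 50% called, with a median of −0.03.

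Of 24 other genes of the amino acid response that were tested, 8 were called lower and 5 higher, or 54.2% called, beside 13.9% lower, 19.9% higher and 33.7% called of all tested genes. The list's median was −0.24 beside 0.026 for all tested genes under loess, and 0.63 beside 0.69 under median centring. Atf4, the gene of the transcription factor itself, was among those called higher, at 0.38 ± 0.15 with an adjusted p of 0.013 (limma). Asns, which makes asparagine, had −0.76, −1.04, −1.20 and −1.01, a level 2.00-fold lower, with an adjusted p of 0.0009 (limma). The stress-induced inhibitor gene Ddit4 had −0.79 ± 0.09 and the serine pathway gene Shmt2 had −0.61 ± 0.18, both called lower. Ddit3, which encodes a stress transcription factor, rose by 0.52 ± 0.41 but had −0.02 on replicate 2, and Eif4ebp1, which restrains cap-dependent translation, had −0.25 ± 0.26 and was not called.

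Amino acid transporters were called lower in 3 of 11 cases and higher in 2, or 45.5% called, beside 33.7% of all tested genes. Their median was −0.14 under loess and, under median centring, 0.76, above the 0.69 of all tested genes there. Slc38a1 and Slc7a1, carriers of neutral and basic amino acids, had −0.92 ± 0.14 and −0.88 ± 0.18, and Slc7a5, a carrier of large neutral amino acids that include tryptophan, had −0.45 ± 0.23, all called lower. Slc38a2 rose by 0.70 ± 0.12, and Slc6a9 was not called at −0.24 ± 0.14. A list of 9 genes covered the use of tryptophan, the substrate of Wars, and later steps of its breakdown. Of these, 6 were tested, with 1 called higher and 1 lower (33.3% called). The former was Ido1, the interferon-induced enzyme that breaks tryptophan down, which was not well above background in control RNA on any array, so no fold is given. Kyat1 was called lower at −0.45 ± 0.26, and Haao had −0.12 ± 0.07.

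Of 17 partners of the synthetases in tRNA charging, 7 were called higher and 1 lower, beside 19.9% and 13.9% of all tested genes, with a median of 0.22 (0.93 under median centring). Those called higher include Sephs2, which was not well above background in control RNA on any array, so no fold is given for it. Ppa1, the pyrophosphatase that removes the by-product of charging, rose by 0.83 ± 0.08, and Sephs1, a selenophosphate synthetase homologue, by 0.67 ± 0.05. Trnt1, which adds the terminal CCA to transfer RNA, rose by 0.55 ± 0.29, and Gatc, a subunit of the mitochondrial enzyme that makes glutaminyl-tRNA, by 0.53 ± 0.26. Aarsd1, an editing factor, had 0.03 ± 0.15 and was not called.

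Of 16 mitochondrial translation genes, 3 were called higher and 1 lower, or 25% called, beside 33.7% of all tested genes. Their median was 0.067 (0.92 under median centring). Mrps2, a mitochondrial ribosomal protein gene, rose by 0.95 ± 0.13, and the factor genes Tsfm and Mtif3 by 0.56 ± 0.14 and 0.30 ± 0.17. Mrrf, for ribosome recycling, had −0.29 ± 0.15 and was called lower, and Mtif2 had −0.35 ± 0.70. Of 8 cytosolic elongation and termination genes 1 was called (12.5%), Eef1a1, which rose by 0.44 ± 0.08, and Eef2 had 0.07 ± 0.23. Of 5 genes of the pathway that senses uncharged tRNA and other stress, 3 were called (60%), all of them higher. Eif2ak2, an interferon-induced kinase, rose by 1.41 ± 0.20, Eif2ak1 by 0.40 ± 0.18 and Eif2ak3 by 0.32 ± 0.07, while Eif2s1, their substrate, had −0.21 ± 0.12 and was not called. Eif2ak4, the kinase that senses uncharged tRNA itself, had 0.03 ± 0.19 with an adjusted p of 0.79 (limma).

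**Figure D5:**
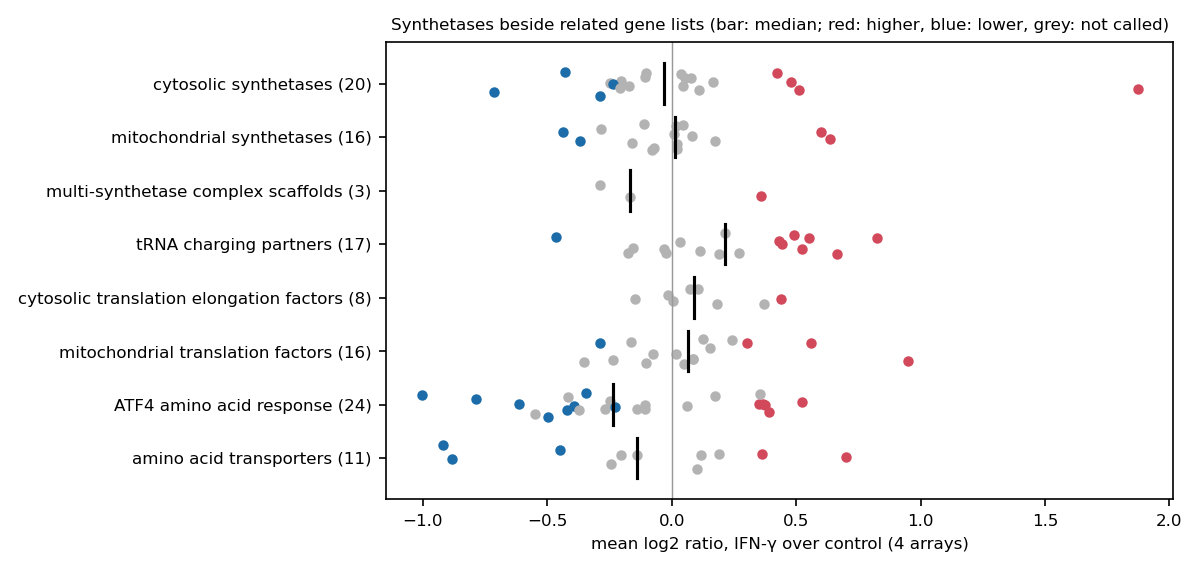
Mean log2 ratio over 4 arrays (x axis) of each gene in the 2 groups of synthetases and in 6 related lists, with the median of a list as a bar, genes called higher in red, lower in blue and not called in grey. Both synthetase medians lie next to 0, at −0.032 and 0.013, and the amino acid response list has the lowest median of the lists shown under loess, −0.24.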

How the data were processed

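Total RNA (8 µg) was labelled for Agilent 2-colour mouse arrays. Per the file headers, the deposited spot and local background intensities and the log10 ratios of Cy5 to Cy3 were made by the authors with Feature Extraction 10.7.3.1. Per the design text, the authors' deposited log2 values came from GeneSpring; they equalled log2 ratios of the processed signals (slope 1, r = 1 on each array), with column medians from −0.124 to −0.105 and centring otherwise unstated.

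In limma 3.58.1 (R 4.3.3), median intensities received normexp correction (offset 50), then loess within each array. Control spots had weight 0, and outlier-flagged spots were left out. Of 39429 probes, 26055 received 1 RefSeq symbol, 0 several and 13374 none. A probe was tested when well above background in 1 channel on at least 3 arrays, and the brightest tested probe stood for a gene (7 members had 2 or more). Channel intensities came from loess and Aquantile normalisation. lmFit and eBayes tested mean ratios of 15672 genes against 0, two-sided, with Benjamini-Hochberg adjustment at 0.05; the test was checked on simulated data. Precision is limited by the number of arrays, 4. The file headers name another build than the gene table, so gene coordinates are not printed other than for RefSeq promoter sequences.

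Array centring, the background correction, the filter, the probe rule and the test were varied. Members and the 21 lists were chosen with earlier results of these data known. Every member is named. Values per array are given for members called at 1.5-fold or more, Wars, Wars2 and the 6 called members with the smallest adjusted p, and, chosen after values were seen, for the other called members, Farsa, Cars2 and Yars2. Of other lists, up to 4 called genes with the largest change and the brightest not called are named. Aimp2, Atf4, Eif2ak4, Sephs2, Socs1, Myod1, Myog and Irf1 are named as well and stand outside that rule. One member's promoter is not reported here.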

Additional observations from a re-analysis of the deposited data

Results flagged for a closer look

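Among the values per array, 6 had 1 array far from the other 3 by Dixon's criterion for 4 values, which chance alone meets in about 5% of groups. The number of groups screened is not stated, so the 6 cannot be set against that share. Farsb had 0.70 on replicate 1 against 0.40 to 0.42 on the others, and stayed above 0 on all. Replicate 1 also stood apart for Ddit4, at −0.64 against −0.85 to −0.82, and for the median of the tryptophan list, at 0.070 against −0.03 to −0.02. The median of the class I cytosolic synthetases was 0.13 on replicate 2 and −0.11 to −0.10 on the other arrays. The median of the 8 cytosolic enzymes outside the ATF4 target list was 0.14 on replicate 3 against −0.10 to −0.06. Eif2ak3 had 0.42 on replicate 4 against 0.28 to 0.30.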

How the results depend on the processing

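Wars was called higher under all 17 alternatives. Of the 12 called members, 12 kept direction and call with no background correction, with both channels above background and with no filter. The same 12 did so with all tested probes of a gene averaged. With each probe tested on its own, 12 were kept as well, but only the brightest probe of a gene was counted. Its values are those of the main setting, and only the adjustment, over all tested probes, differed. Second probes were not called for Iars2 (0.07, adjusted p = 0.47 in limma) and Tars2 (−0.07, adjusted p = 0.49), while that of Wars was (1.09, adjusted p = 0.0021). Direction and call held for 11 with offset 0 and with the channels as separate samples (no replicate block, 6 higher and 6 lower). They held for 9 with Feature Extraction's signals or the authors' value table. With the channels as separate samples, 19.1% and 12.3% of all tested genes were called higher and lower. The array pairs both channels, so no other paired analysis was possible because each replicate number is 1 array. Without 1 replicate at a time, the count called lower ran from 2 (without replicate 3) to 11 (without replicate 2), and the mitochondrial median from −0.019 to 0.024. With the methods' t-test, adjusted and at a fold of 2, 1 member was higher and 0 lower, against 6 and 8 at an unadjusted p under 0.05. Of all tested genes the former called 1.78% higher and 0.759% lower, and the latter 24.0% and 16.0%. The mitochondrial median was −0.079 with Feature Extraction's signals and with the authors' table.

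Median centring gave 33 higher and 1 lower, with a cytosolic median of 0.90 and a mitochondrial one of 0.71. Members that changed sign had 0.58 for Aars, 0.90 for Cars, 0.014 for Dars, 0.91 for Farsa, 0.79 for Gars, 0.81 for Lars, 0.77 for Mars, 0.84 for Qars, 0.73 for Sars, 0.73 for Vars, 0.65 for Aars2, 0.64 for Cars2, 0.56 for Fars2, 0.90 for Hars2, −0.60 for Nars2, 0.76 for Pars2, 0.64 for Tars2 and 0.31 for Wars2. Centring on the tested probes gave 25 higher and 3 lower, beside 46.0% and 29.8% of all tested genes. The medians were 0.43 and 0.23, beside 0.22 for all tested genes. Members that changed sign there had 0.11 for Aars, 0.43 for Cars, 0.43 for Farsa, 0.32 for Gars, 0.34 for Lars, 0.30 for Mars, 0.37 for Qars, 0.26 for Sars, 0.25 for Vars, 0.092 for Fars2, 0.43 for Hars2, −0.35 for Mars2, −1.07 for Nars2, 0.29 for Pars2 and 0.17 for Tars2. Yars at −0.015, Aars2 at 0.18 and Cars2 at 0.17 also changed sign there. Both leave out loess, and the cause of the changed signs was not tested. Dim probes such as that of Nars2 limit small ratios.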
